A study of Rattus norvegicus with 12 samples.

Results

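The genes of the 5 enzyme complexes of oxidative phosphorylation were followed through chemical liver carcinogenesis in the rat. They were chosen by name: a gene was taken if its array symbol begins with Nduf, then a, b, c, s or v and a digit (complex I), is Sdha, Sdhb, Sdhc or Sdhd (complex II), or begins with Uqcr (complex III), Cox and a digit from 4 to 8 (complex IV) or Atp5 (complex V). The rule found 88 of the 31099 probe sets and 79 of the 14217 genes tested, with 35 genes in complex I, 4 in complex II, 7 in complex III, 17 in complex IV and 16 in complex V. Each gene is represented by its brightest probe set over the 12 arrays. The names reach a little past the enzymes themselves. Atp5if1 encodes an inhibitor of the ATP synthase, Cox7a2l a factor that joins complexes III and IV into supercomplexes, Ndufa4 a protein now assigned to complex IV, and Cox6c-ps1 is named as a pseudogene.

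Liver or tumour tissue of male adult Sprague-Dawley rats was measured on 12 single-colour expression arrays, 3 for each of 4 groups. Controls were injected with distilled water, and the labels give no time of sacrifice for them. The other groups received diethylnitrosamine (DEN), a carcinogen that hepatocytes convert to its DNA-alkylating form, at 70 mg/kg into the peritoneum once per week for 10 weeks. They were sampled at week 5 (hepatitis), at week 13 or 14 (cirrhosis) and at week 23 or 24 (hepatocellular carcinoma, HCC), counted after DEN treatment. Whether these weeks run from the first or the last injection is not given here, so the doses received by week 5 are uncertain. The series description speaks of HCC tissue for the last group, while the tissue label reads liver for all. Nothing in the labels ties an array to an animal of its own, so the p-values reflect only how these samples vary, which may be technical.

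Oxidative phosphorylation takes place in the inner mitochondrial membrane. Complex I takes electrons from NADH and complex II from succinate, complex III passes them from ubiquinol to cytochrome c, and complex IV gives them to oxygen. Complexes I, III and IV pump protons as they do so, and complex V, the ATP synthase, lets the protons back to make ATP. The liver draws on this system for glucose and urea synthesis. Most subunits are encoded in the nucleus and these genes are the ones covered here, while the mitochondrial DNA supplies a core set that the name rule does not reach.

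Values are linear intensities as deposited, and differences are on the scale of log2(intensity + 16), where the added 16 understates the change of dim genes. Of the 79 genes, 70 had a mean intensity of at least 100 and 64 of at least 500. The 9 dim ones were Ndufb8, Ndufa4l2, Cox6c-ps1, Cox7a1, Cox6a2, Cox8b, Cox6b2, Cox4i2 and Cox7b2. Median intensity was between 28.7 and 30.9 on all 12 arrays, but mean intensity was 141 to 160 on the HCC arrays, against 164 to 169 on the other 9. The median SD per gene was 0.207 in HCC, 0.0724 in cirrhosis, 0.104 in hepatitis and 0.0857 in control. The Gapdh control probe sets near the 3' end exceeded those near the 5' end by 1.35, 2.43 and 3.14 log2 units on HCC replicates 1, 2 and 3. On the other arrays this gap, which is used as a sign of RNA degradation, was 0.379 to 1.02. For the actin control probe sets it was 3.82, 4.28 and 4.85 on the HCC replicates, against 2.14 to 2.69 on the other arrays. Control replicate 2 stood apart in 16 skeletal muscle markers, with a mean of 7.45 log2 units against 5.12 to 5.25 on the other 11 arrays.

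The level of the subunit genes was nearly flat up to cirrhosis and lower in HCC in every complex. Averaged over the 79 genes, an array's level was 9.88, 9.97 and 9.88 log2 units in control, 9.97, 9.90 and 10.05 in hepatitis, 9.85, 9.85 and 9.82 in cirrhosis, and 9.53, 9.37 and 9.16 in HCC. The 3 HCC arrays lay below the other 9. Within HCC, replicate 1 was the highest and replicate 3 the lowest for the mean of each complex. Among the 70 genes with a mean of at least 100, 41 had their highest HCC value on replicate 1 and their lowest on replicate 3.

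**Figure D1:**
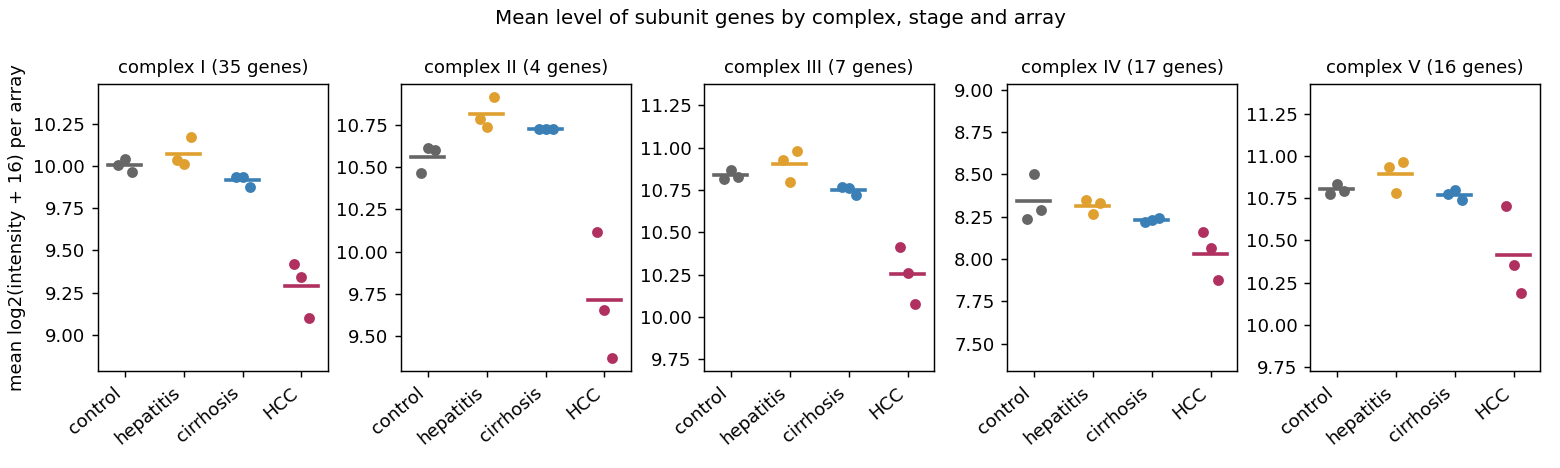
Mean log2(intensity + 16) over the subunit genes of each complex on each of the 12 arrays (points) with the mean of the 3 arrays (bars), from control to HCC; each panel spans the same number of log2 units. The HCC points lie lowest in all 5 panels, with complex II widest apart at 10.11, 9.65 and 9.37 log2 units.

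Hepatitis was compared with control to see what differed at week 5. Calls rest on limma's moderated test, with a threshold of 0.05 on the p-value after Benjamini-Hochberg adjustment over all 14217 genes. Of the 79 subunit genes 2 were higher, which is 2.53% beside 1.87% of all genes, and 0 were lower beside 2.12%. By an unadjusted p under 0.05, 11 of the 79 would have been counted in either direction. Their median difference was 0.07, against -0.00 over all genes. Ndufs1, the largest subunit of complex I and a carrier of iron-sulfur clusters, had 744, 712 and 757 in hepatitis, against 419, 537 and 532 in control. The groups did not overlap, and the difference was 0.57 ± 0.11 (SE, limma adjusted p = 0.0233). Ndufb1, a small subunit of the membrane arm, had 1923, 1942 and 1953 in hepatitis, against 1642, 1707 and 1654 in control, a difference of 0.22 ± 0.05 (SE, limma adjusted p = 0.0382).

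In the other complexes no gene was called at this stage. The smallest adjusted p of complex II belonged to Sdhc, a membrane anchor of succinate dehydrogenase, at 1992, 1802 and 2007 in hepatitis against 1220, 1374 and 1443 in control. All hepatitis arrays lay above all control arrays, and the difference of 0.52 ± 0.14 (SE) missed the threshold (limma adjusted p = 0.0708). All 3 hepatitis arrays were above the 3 controls for 26 of the 79 genes, beside 15.1% of all genes, and below them for 3, beside 15.6%. The count of called genes was unsteady: it was 0 without control replicate 1, control replicate 2, hepatitis replicate 1 or hepatitis replicate 3, it was 1 without control replicate 3 or any 1 cirrhosis array, and it was 4 without HCC replicate 1 and 3 without HCC replicate 3. With the more variable HCC arrays out of the fit altogether, 7 genes were higher and 1 lower. Among them were Sdhc (limma adjusted p = 0.00391), Ndufc1 (0.29) and Cox6c (0.20) above control and Cox5a (-0.23) below it. The share of all genes called in that fit is not given here, so a general gain in calls cannot be told from one in the subunit genes.

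Cirrhosis against control gave 0 genes higher and 2 lower of 79, which is 2.53% lower beside 1.79% of all genes, with 1.54% of all genes higher. An unadjusted p under 0.05 was reached by 10 of the 79, and the median difference was -0.06. Ndufa9, a subunit of the matrix arm of complex I that lies near the ubiquinone site, had 858, 817 and 773 in cirrhosis, against 973, 1001 and 938 in control (-0.25 ± 0.06 SE, limma adjusted p = 0.0447). Cox5a, a matrix-side subunit of complex IV, had 201, 213 and 214 in cirrhosis, against 283, 260 and 271 in control (-0.35 ± 0.07 SE, limma adjusted p = 0.0277). Neither gene's groups overlapped. A brighter probe set that names Cox5a together with another locus, and is therefore not among the 79, differed by -0.13.

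Atp5if1 was at 349, 388 and 322 in cirrhosis, against 220, 218 and 244 in control, with no overlap and a difference of 0.60 ± 0.20 (SE) that missed the threshold (limma adjusted p = 0.152). All cirrhosis arrays lay below control for 35 of the 79 genes, beside 19.3% of all genes, and above for 8, beside 18.1%. In complex III the smallest adjusted p belonged to Uqcrq, a small subunit, at 2673, 2901 and 2716 in cirrhosis against 3304, 3146 and 3038 in control (limma adjusted p = 0.269). The count of called genes was 0 without any 1 of the control or cirrhosis arrays, 1 without any 1 of the hepatitis arrays, 4 without HCC replicate 1 and 3 without HCC replicate 3. With all HCC arrays out of the fit, Atp5if1, Ndufs1 (0.39) and Sdhc (0.28) were higher. Lower in that fit were Cox5a, Ndufa12 (-0.25), Ndufa8 (-0.27), Ndufa9, Ndufs8 (-0.20) and Ndufv1 (-0.28). With only the compared groups fitted 14 genes were called. The shares of all genes given above belong to the main fit, and none is given for these alternatives. Whether the gain is particular to the subunit genes was not tested.

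Cirrhosis against hepatitis asked what differed between the non-tumour stages. Of the 79 genes 1 was lower, which is 1.27% beside 0.563% of all genes, and 0 were higher beside 0.394%. An unadjusted p under 0.05 was reached by 10. The called gene, Ndufs4, a subunit of the matrix arm whose loss causes complex I deficiency in people and mice, had 281, 285 and 284 in cirrhosis, against 399, 336 and 445 in hepatitis (-0.44 ± 0.09 SE, limma adjusted p = 0.0493). Differences were negative for 71 of the 79, with a median of -0.13 over the 79, against 0.00 over all genes. The count was 0 without any 1 of the 3 control or 3 cirrhosis arrays, or without hepatitis replicate 1 or 3, and 2 or 3 without an HCC array. With all HCC arrays out of the fit 8 genes were lower, among them Ndufa8 (-0.42), Uqcrh (-0.36) and Ndufa12 (-0.26). No share of all genes is given for that fit, so the gain may be a general one.

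HCC against control gave 50 genes lower and 4 higher of 79. That is 63.3% lower beside 18.7% of all genes, and 5.06% higher beside 20%. The median difference of the 79 was -0.45, against 0.01 over all genes, and 17 of the 50 were lower by at least 1 log2 unit. Calls that far down were made for 1009 of all 14217 genes. They were made for 491 of the 1605 genes with a mean intensity of at least 500, a larger share than in the 79. All HCC arrays lay below all control arrays for 52 of the 79, beside 22.5% of all genes, and above for 6, beside 24.1%. Bright genes as a whole were often lower in HCC: of all 1605 genes with a mean intensity of at least 500, 45.4% were lower and 18.6% higher, with a median of -0.40. Of the 64 subunit genes that bright, 46 (71.9%) were lower and 3 higher. In bulk tissue, fewer cells of a type and less RNA per cell cannot be told apart.

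**Figure D2:**
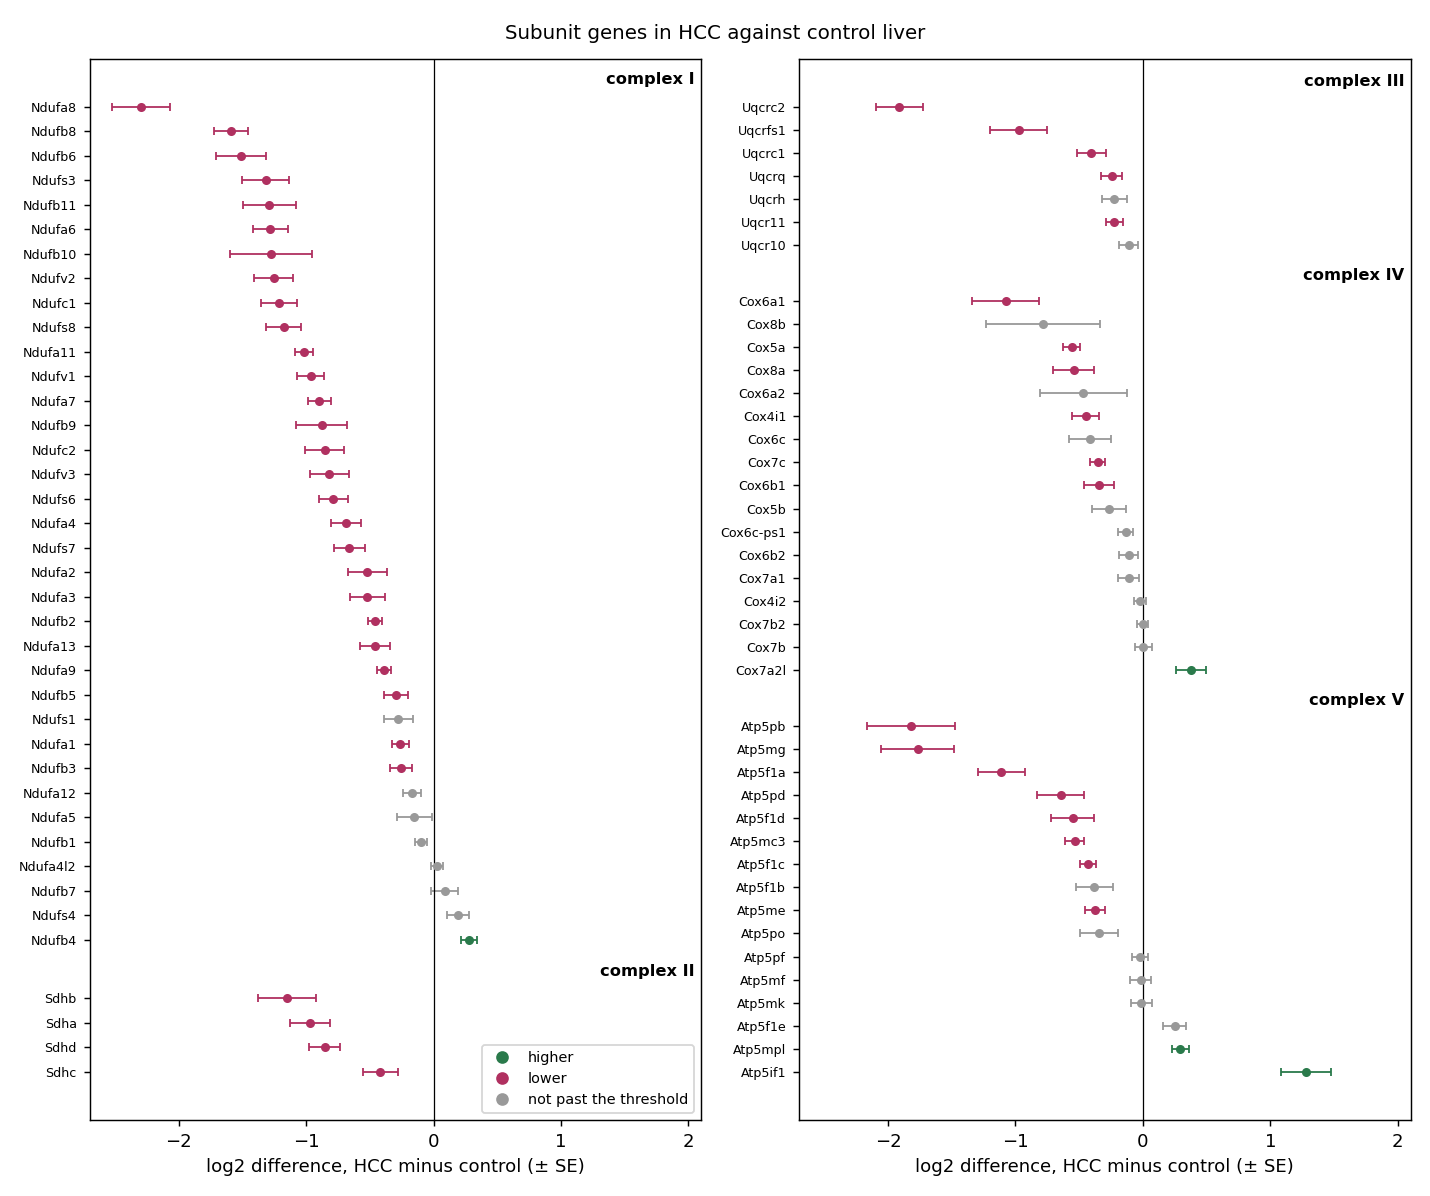
Difference in log2(intensity + 16), HCC minus control, for each of the 79 genes with its standard error (bars), ordered by size within each complex; red genes were lower, green ones higher and grey ones not past an adjusted p of 0.05. Differences run from -2.29 for Ndufa8 to 1.28 for Atp5if1.

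Complex I carried the most calls, with 27 of 35 genes lower and 1 higher, and a median of -0.69. Ndufa8, a subunit on the intermembrane-space side of the membrane arm, fell furthest of the 79, to 364, 292 and 155 in HCC, against 1246, 1361 and 1343 in control. No HCC array came near a control array, and the difference was -2.29 ± 0.23 (SE, limma adjusted p = 0.000108). Ndufb8, a membrane-arm subunit often used on protein blots as a gauge of assembled complex I, was dim but had 33.7, 20.2 and 19.7 in HCC, against 94.1, 112 and 108 in control (-1.59 ± 0.13 SE, limma adjusted p = 4.86e-05). Its HCC values lie close to the added 16, so this difference is understated. Ndufb6, also of the membrane arm, had 471, 411 and 232 in HCC, against 1046, 1071 and 1020 in control (-1.51 ± 0.20 SE, limma adjusted p = 0.000384). Ndufs3, a core subunit of the matrix arm, had 507, 362 and 286 in HCC, against 959, 993 and 926 in control (-1.32 ± 0.19 SE, limma adjusted p = 0.000575). For these 4 genes the HCC arrays were separate from the controls, and replicate 3 was the lowest.

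The core subunits of the electron path were not alike. Ndufv1, which binds the flavin that accepts electrons from NADH, averaged 534 ± 71.0 in HCC and 1054 ± 59.4 in control (SD, n = 3 arrays each) and was lower by 0.97 log2 units (-0.97 ± 0.10 SE, limma adjusted p = 0.000139). Ndufv2 (-1.25 ± 0.15 SE), Ndufs8 (-1.18 ± 0.14 SE) and Ndufs7 (-0.66 ± 0.12 SE), which hold iron-sulfur clusters further along, were lower as well. Ndufs1 was at 476, 376 and 368 in HCC, against 419, 537 and 532 in control, with overlapping groups and no call (limma adjusted p = 0.078). Ndufs4 was at 393, 388 and 397 in HCC against 358, 335 and 332 in control, and Ndufb7 differed by 0.09 ± 0.11 (SE), neither past the threshold. Ndufb4, a membrane-arm subunit, was the 1 gene of complex I that rose: 2481, 2134 and 2254 in HCC, against 1885, 1923 and 1831 in control (0.28 ± 0.06 SE, limma adjusted p = 0.00572).

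All 4 genes of complex II, which is also the succinate dehydrogenase of the TCA cycle, fell, with a median of -0.91. Sdha, the flavin-binding catalytic subunit, had 651, 508 and 384 in HCC, against 972, 1009 and 1019 in control (-0.97 ± 0.16 SE, limma adjusted p = 0.00109). Sdhb, the iron-sulfur subunit, had 1283, 834 and 555 in HCC, against 1762, 2015 and 1880 in control (-1.15 ± 0.23 SE, limma adjusted p = 0.00335). For both genes the HCC arrays were spread widely and all lay below control. The membrane anchor Sdhd had 1315, 992 and 965 in HCC, against 1822, 2070 and 2019 in control (-0.86 ± 0.12 SE, limma adjusted p = 0.000515), and its second probe set differed by -1.45. Sdhc, the other anchor, had 1291, 922 and 840 in HCC, against 1220, 1374 and 1443 in control (-0.42 ± 0.14 SE, limma adjusted p = 0.0355). HCC replicate 1 overlapped the controls there, and the difference was 0.0534 with the Gapdh 3' to 5' gap as a covariate.

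In complex III 5 of 7 genes were lower and 0 higher, with a median of -0.24 and 1 gene far from the rest. Uqcrc2, the core protein on the matrix side, had 498, 397 and 256 in HCC, against 1271, 1552 and 1501 in control (-1.91 ± 0.19 SE, limma adjusted p = 9.35e-05), with no overlap. Its partner Uqcrc1 had 1312, 961 and 1077 in HCC, against 1486, 1511 and 1415 in control, and fell by 0.40 log2 units (SE 0.12, limma adjusted p = 0.02). Uqcrfs1, the Rieske iron-sulfur protein that passes electrons to cytochrome c1, had 1253, 917 and 576 in HCC, against 1597, 1784 and 1814 in control (-0.97 ± 0.22 SE, limma adjusted p = 0.00693). Uqcrq had 2348, 2922 and 2762 in HCC, against 3304, 3146 and 3038 in control (-0.24 ± 0.08 SE, limma adjusted p = 0.038), and here replicate 1 was the lowest HCC array. Under quantile normalization the Uqcrq difference was 0.0235. Cytochrome c1 itself, Cyc1, lies outside the name rule and was lower by a similar -0.40 ± 0.10 (SE, limma adjusted p = 0.0094). It was named after its values were seen.

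Complex IV had 6 of 17 genes lower (35.3%) and 1 higher (5.88%), beside 18.7% and 20% of all genes. Its median was -0.35, and 7 of its genes were dim. Cox6a1, the form of subunit 6a that liver uses, had 1219, 817 and 468 in HCC, against 1647, 1701 and 1618 in control (-1.08 ± 0.26 SE, limma adjusted p = 0.00947). Cox5a had 197, 177 and 165 in HCC, against 283, 260 and 271 in control (-0.56 ± 0.07 SE, limma adjusted p = 0.000261). Cox8a had 1818, 2019 and 1196 in HCC, against 2383, 2344 and 2457 in control (-0.54 ± 0.16 SE, limma adjusted p = 0.0244). The HCC arrays were below control for all 3 genes. Cox4i1, a regulatory subunit, had 2682, 2598 and 1948 in HCC, against 3254, 3284 and 3238 in control (-0.45 ± 0.11 SE, limma adjusted p = 0.00811). Cox6b1, on the intermembrane-space side, had 1909, 1454 and 1294 in HCC, against 1948, 1931 and 1972 in control (-0.35 ± 0.12 SE, limma adjusted p = 0.0427). Neither gene's HCC arrays overlapped control, with Cox6b1 on HCC replicate 1 just under the lowest control. The Cox6b1 difference was 0.0311 under quantile normalization, with the sign turned.

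Complex V had 8 of 16 genes lower (50%) and 2 higher (12.5%), with a median of -0.38. Among all genes 18.7% were lower and 20% higher. The lower share and the median were near those of all genes with a mean intensity of at least 500 (45.4% and -0.40). Atp5pb, subunit b of the stalk that holds the enzyme's head still, had 1739, 891 and 470 in HCC, against 2937, 3455 and 3308 in control (-1.82 ± 0.35 SE, limma adjusted p = 0.0028). Atp5mg, subunit g of the membrane part, had 948, 630 and 323 in HCC, against 1982, 2053 and 2000 in control (-1.77 ± 0.29 SE, limma adjusted p = 0.00116). Both differed several-fold among the HCC arrays themselves, and no HCC array reached the controls. Atp5f1a, the alpha subunit of the head, had 1537, 1093 and 808 in HCC, against 2245, 2598 and 2397 in control (-1.11 ± 0.19 SE, limma adjusted p = 0.00145). Atp5f1b, the beta subunit that carries the catalytic sites, averaged 3217 ± 745 in HCC and 4128 ± 298 in control (SD, n = 3 arrays each) with overlap and no call (limma adjusted p = 0.0662). Atp5pf (-0.02 ± 0.06 SE), Atp5mf (-0.02 ± 0.08 SE) and Atp5mk (-0.01 ± 0.08 SE) differed by less than their error.

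**Figure D3:**
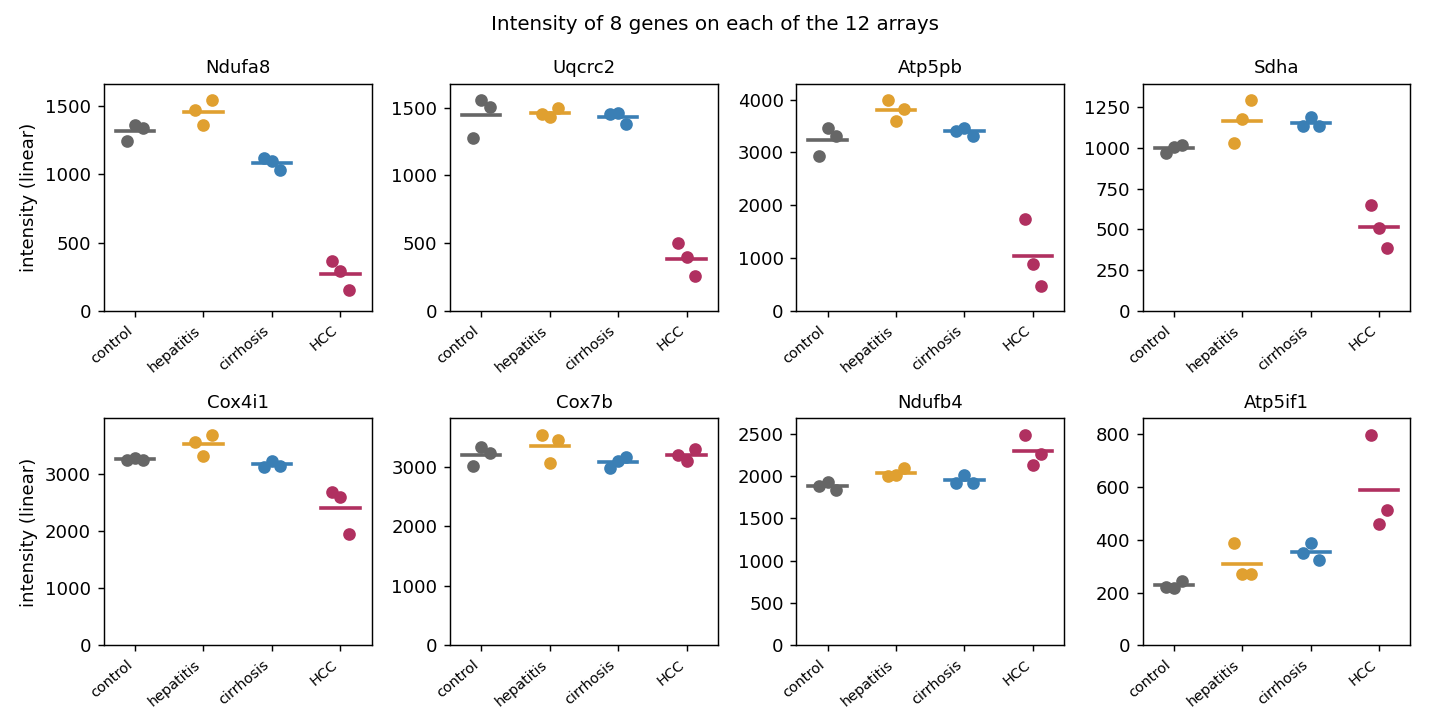
Linear intensity of 8 genes on each of the 12 arrays (points; bars are means of 3 arrays), from control to HCC. Ndufa8, Uqcrc2, Atp5pb, Sdha and Cox4i1 are lowest in HCC, Cox7b differs by 0.00 log2 units between HCC and control, and Ndufb4 and Atp5if1 are highest in HCC.

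Atp5if1 stood out among the 4 genes that rose. Its protein blocks the reverse, ATP-burning action of the synthase when the membrane potential falls. It had 797, 461 and 512 in HCC, against 220, 218 and 244 in control (1.28 ± 0.20 SE, limma adjusted p = 0.000892). Its 3 group means above control lay in stage order, with differences of 0.41 in hepatitis, 0.60 in cirrhosis and 1.28 in HCC, and all arrays of each stage above all controls. Stage neighbours were not all separate: hepatitis and cirrhosis overlapped (limma adjusted p = 0.867), while HCC lay above cirrhosis (0.68 ± 0.20 SE, limma adjusted p = 0.0215). Of its 2 dimmer probe sets, 1 was higher by 0.49 and the other differed by 0.05, each under a mean of 50.

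Cox7a2l had 981, 867 and 750 in HCC, against 570, 669 and 749 in control (0.38 ± 0.12 SE, limma adjusted p = 0.0289), so that the groups met almost edge to edge. Atp5mpl, a small proteolipid of the synthase, had 1529, 1518 and 1482 in HCC, against 1230, 1247 and 1208 in control (0.29 ± 0.07 SE, limma adjusted p = 0.00794). Atp5f1e, the epsilon subunit, was at 2760, 2809 and 3543 in HCC, against 2565, 2594 and 2445 in control, with no overlap and an adjusted p from limma of 0.0527.

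Subunits with tissue-specific forms showed the liver forms bright and the others near the floor of the arrays. Cox4i2, the lung form of subunit 4, was at 8.9, 8.3 and 9.6 in HCC, against 9.9, 9.1 and 9.0 in control. Cox6b2, the testis form of subunit 6b, was between 10.8 and 16.8 on all 12 arrays, and Cox7a1, a heart and muscle form, between 12.7 and 22.5. Ndufa4l2, a relative of Ndufa4 that hypoxia induces in other cells, was between 14.5 and 17.9 on all 12 arrays, while Ndufa4 had 2355, 2202 and 1609 in HCC, against 3165, 3375 and 3290 in control (-0.69 ± 0.12 SE, limma adjusted p = 0.00149). The muscle forms Cox6a2 and Cox8b were at 63.0 and 89.3 on control replicate 2, against 9.4 to 11.8 and 6.7 to 11.2 on the other 11 arrays. That is the array with high skeletal muscle markers, and their part in this was not tested. Of the subunit c genes of ATP synthase only Atp5mc3 has a probe set of its own, at 3452, 2943 and 2859 in HCC, against 4387, 4512 and 4495 in control (-0.54 ± 0.07 SE, limma adjusted p = 0.00053). Probe sets shared with a like-named locus gave -1.16 for Atp5mc1, -1.34 for Atp5mc2 and -0.62 for Cox7a2.

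HCC was also compared with the earlier stages, where both groups had received DEN; these comparisons share the HCC arrays with the one against control. Against cirrhosis 41 genes were lower and 6 higher (51.9% and 7.59%, beside 17.7% and 19.4% of all genes), with a median of -0.35. Against hepatitis 57 were lower and 2 higher (72.2% and 2.53%, beside 17.1% and 17.9% of all genes), with a median of -0.52. Bright genes were often lower here too. Of the 1605 genes with a mean of at least 500, 44.8% were lower than cirrhosis and 44.1% lower than hepatitis. Their medians were -0.41 and -0.41. Of the 64 subunit genes that bright, 37 (57.8%) were lower than cirrhosis and 52 (81.25%) lower than hepatitis. With the Gapdh 3' to 5' gap as a covariate, 11 genes were lower than cirrhosis and 19 lower than hepatitis. Quantile normalization gave 33 lower and 16 higher than cirrhosis, and 35 lower and 7 higher than hepatitis. The shares of all genes called in these alternative fits are not given here. A general change in calls therefore cannot be told from one in the subunit genes. All 3 HCC arrays lay below the other 9 for 43 of the 79 genes, beside 13.3% of all genes. In 19 of the 79, beside 8.77% of all genes, all arrays of 1 stage lay above control and all arrays of another stage below it, with a call between these stages. Ndufa8 had 1123, 1099 and 1035 in cirrhosis and 1475, 1362 and 1543 in hepatitis, so that HCC differed by -2.02 ± 0.23 and -2.44 ± 0.23 (SE, limma adjusted p = 0.000173 and 7.68e-05). Uqcrc2 differed by -1.91 and -1.93, Atp5pb by -1.89 and -2.06, Ndufb8 by -1.61 and -1.80, and Sdha by -1.17 and -1.19 from cirrhosis and from hepatitis.

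The largest differences from the earlier stages also took in other genes. Ndufa6, an LYR-motif subunit of the matrix arm, had 730, 787 and 513 in HCC, against 1684, 1553 and 1600 in cirrhosis (-1.26 ± 0.14 SE, limma adjusted p = 0.000147). Ndufc1 had 647, 715 and 447 in HCC, against 1740, 1562 and 1826 in hepatitis (-1.50 ± 0.15 SE, limma adjusted p = 8.68e-05). Cox6a1 (-1.03 ± 0.26 SE) and Cox7c (-0.29 ± 0.06 SE) were among the 4 complex IV genes below cirrhosis, and Uqcrc2 and Uqcrfs1 (-1.04 ± 0.22 SE) were the 2 of complex III. The sign turned for 3 of these: Cox6a1 (0.239) and Uqcrfs1 (0.0064) under the Gapdh covariate, and Cox7c (0.0369) under quantile normalization. Against hepatitis complex III had 6 genes lower, including Uqcrh, the hinge protein, at 1710, 1442 and 1263 in HCC against 2011, 1827 and 2027 in hepatitis (-0.42 ± 0.10 SE, limma adjusted p = 0.00865). Ndufs1 was lower than both, at -0.67 ± 0.11 against cirrhosis and -0.84 ± 0.11 against hepatitis (SE, limma adjusted p = 0.00142 and 0.000455). The 6 genes above cirrhosis were Ndufb4, Ndufb7, Ndufs4 (0.45 ± 0.09 SE), Atp5f1e (0.37 ± 0.09 SE), Atp5mpl (0.36 ± 0.07 SE) and Atp5if1, and the 2 above hepatitis were Atp5f1e and Atp5if1.

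How many subunit genes were called in HCC depended on the scaling and on the RNA quality measure. Quantile normalization of the arrays gave 33 lower and 11 higher against control, a split of 75% lower calls beside 92.6%. With the Gapdh 3' to 5' difference as a covariate, a measure that itself differed between HCC and the other groups, 28 were lower and 3 higher than control, a smaller loss than in the comparisons with cirrhosis and hepatitis above. Under the covariate 27 of the 50 genes remained lower, and the Ndufa8 difference was -1.49, that of Uqcrc2 -1.25 and that of Atp5pb -0.46, while Atp5if1 was higher by 1.83. Without HCC replicates 2 and 3, which had the widest Gapdh gap, Ndufa8 differed by -1.81, Uqcrc2 by -1.50, Atp5pb by -0.89 and Atp5if1 by 1.74. That fit leaves HCC with 1 array, which is assumed to vary like the other groups, so these differences have no replicate check within HCC. The remaining array, replicate 1, also had wider Gapdh and actin gaps (1.35 and 3.82 log2 units) than any array outside HCC. Without control replicate 2, the array with muscle markers, 39 genes were lower and 3 higher. Fitting only the compared groups called 33 genes, and 39 of the 50 were lower whichever 1 of the 12 arrays was left out. The part of RNA quality in the fall was not tested beyond these fits. Without the shares of all genes called in them, a general loss of calls cannot be told from one in the subunit genes.

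**Figure D4:**
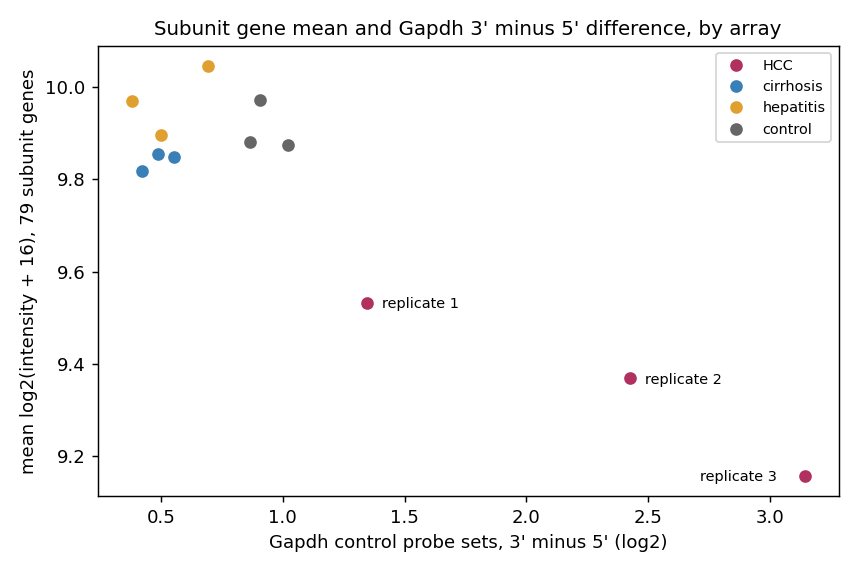
Mean log2(intensity + 16) of the 79 subunit genes against the log2 difference between 3' and 5' Gapdh control probe sets, 1 point per array. The HCC arrays have both the widest 3' to 5' difference (1.35, 2.43 and 3.14) and the lowest means (9.53, 9.37 and 9.16), in the same order.

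Lists of related genes were set beside the subunits in HCC against control, where 18.7% of all genes were lower and 20% higher, and no test compared the lists. Of 15 TCA cycle and pyruvate dehydrogenase genes 9 were lower than control and 0 higher (median -0.93), led by Sucla2, Suclg1 and Suclg2, the subunits of succinyl-CoA synthetase (-1.78, -1.66 and -1.48). Of 18 electron carriers and enzymes of ubiquinone synthesis 12 were lower and 1 higher (median -0.58), including Etfdh, which feeds electrons from fatty acid oxidation to ubiquinone, at a mean of 146 in HCC against 770 in control (-2.31 ± 0.19 SE, limma adjusted p = 4.32e-05), Coq8a (-1.99) and Coq9 (-1.43). Of 43 assembly factors 24 were lower and 2 higher (median -0.40): Acad9, needed for complex I assembly, fell by 1.22 and Coa5 by 1.12, while Cox17, the copper chaperone of complex IV, had a mean of 1162 in HCC against 514 in control (1.09 ± 0.19 SE, limma adjusted p = 0.00166). Of 73 mitochondrial ribosomal proteins 41 were lower and 6 higher (median -0.40), among them Mrpl17 (-1.56) and Mrpl15 (-1.55).

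Of the cytosolic ribosomal proteins 27 of 46 were higher and 1 lower (median 0.43), such as Rpl22 (0.98) and Rpl23a (0.97). Of 24 regulators of mitochondrial biogenesis 7 were lower (29.2%) and 4 higher (16.7%), with a median of -0.10, nearer to the shares of all genes. Esrrg, a nuclear receptor that drives mitochondrial genes in muscle and heart, fell to a mean of 19.0 in HCC against 99.4 in control, while Myc (1.41) and Pprc1 (1.34) rose. Of 12 carriers of the mitochondrial membranes 3 were higher (25%) and 1 lower (8.33%), with a median of -0.03: Slc25a4, the muscle form of the ADP/ATP carrier, had a mean of 932 in HCC against 226 in control (1.94 ± 0.35 SE, limma adjusted p = 0.00201), Ucp2 rose by 1.18, and Slc25a5, another ADP/ATP carrier, fell by 0.89. Before HCC these lists held at most 3 calls each in hepatitis or in cirrhosis against control. Among all genes 1.87% were higher and 2.12% lower in hepatitis, and 1.54% and 1.79% in cirrhosis. The largest share was that of the 18 electron carriers and ubiquinone enzymes in hepatitis, with 2 lower (11.1%) and 0 higher.

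**Figure D5:**
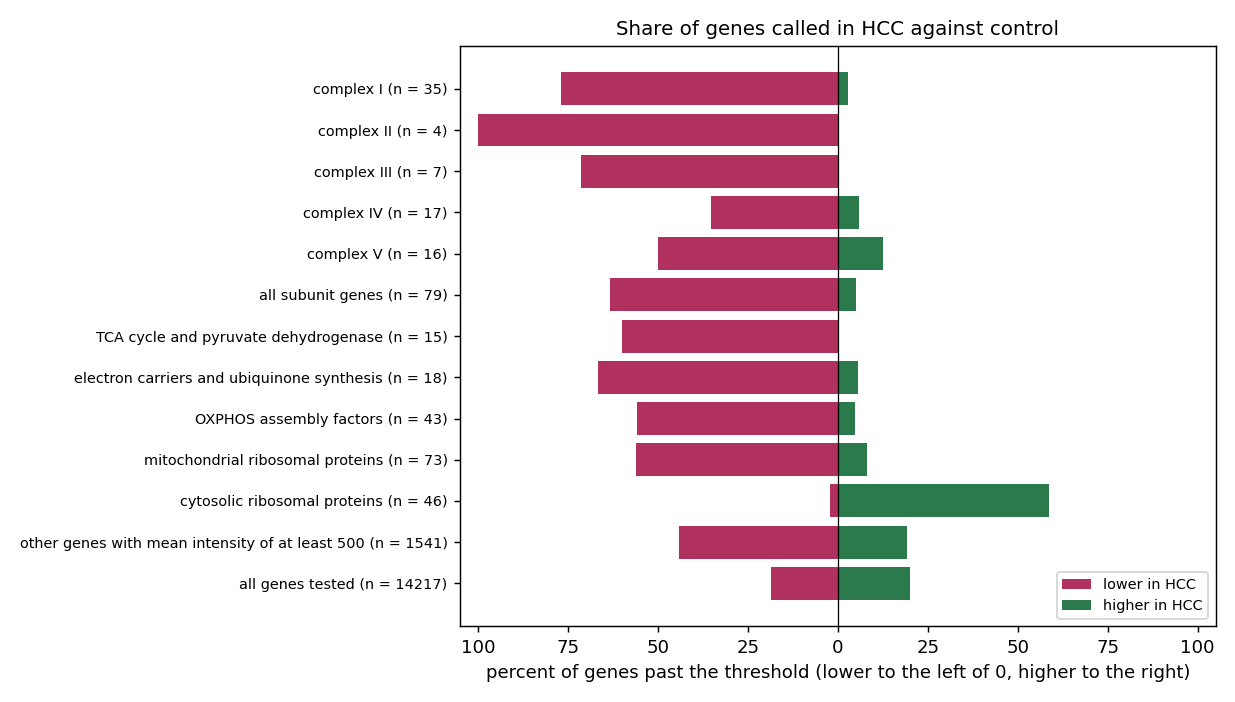
Percent of genes lower (red, left) and higher (green, right) in HCC against control at an adjusted p under 0.05, for each complex, the 79 subunit genes, 5 related lists and all genes. The subunit genes have 63.3% lower calls, beside 44.3% for the 1541 other genes with a mean intensity of at least 500 and 18.7% for all genes.

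Markers of cell types moved with the same comparison, and their part in the subunit results was not tested. Of 11 hepatocyte markers 7 were lower in HCC and 0 higher, with a mean level of 10.49 to 11.39 log2 units on the HCC arrays against 11.99 to 12.12 in control. Within HCC the hepatocyte mean was highest on replicate 2, the subunit mean on replicate 1. Among all genes 18.7% were lower and 20% higher in this comparison. Lower calls were made for 6 of 8 endothelial, 5 of 10 macrophage and Kupffer cell (1 higher) and 4 of 5 erythroid markers. Higher calls were made for 12 of 14 proliferation, 6 of 11 T and NK cell and 6 of 12 stellate cell and myofibroblast markers (1 lower). The stellate list had mean levels of 8.09, 7.27 and 7.36 log2 units on the HCC arrays, against 6.93, 7.18 and 6.95 in control, with replicate 1 well above the rest. Of 7 cholangiocyte markers 2 were higher (28.6%), near the share of all genes, and their mean was 8.47, 5.91 and 6.63 in HCC, against 5.54, 5.62 and 5.55 in control. Of 14 glycolysis genes 5 were higher and 2 lower, with Pfkp at 1.64, Aldoa at 1.49 and Ldha at -1.33.

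The promoters of the subunit genes were read for the short motifs of factors known to act on respiratory genes, since so many of these genes were lower together. Promoters span 250 bases before to 50 after the gene start in RefSeq's GRCr8 assembly, and 71 of the 79 genes had one. The ETS motif bound by GABPA (CCGGAAG on either strand) was in 28.2% of them, beside 9.22% of 27457 promoters. The YY1 motif AAGATGGCG was in 14.1% beside 1.93%, and the NRF1 core CGCATGCG, which reads the same on both strands, in 8.45% beside 1.81%. The motif of ERR receptors, AAGGTCA, was in 15.5% beside 4.37%, while GGGCGG for Sp1 (43.7% beside 34.9%) and CCAAT (35.2% beside 37.7%) were closer to all promoters. Among the 45 promoters of genes lower in HCC the ETS motif was in 31.1%, YY1 in 15.6% and NRF1 in 8.89%. Among the 20 of genes with a mean of at least 100 that were not lower, the shares were 30%, 15% and 10%.

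Promoters of 4 genes that fell by over 1 log2 unit in HCC, chosen for the motifs they hold, are given with that of Atp5if1, the gene that rose most. Each reads 5′ to 3′ along the gene's strand, with matches to the ETS, YY1 and NRF1 motifs on either strand in capitals. Uqcrc2 holds 2 ETS motifs, Ndufa6 1 ETS and 1 YY1, Ndufb8 1 YY1, and Atp5mg 1 NRF1 and 1 ETS. Atp5if1 holds none of the 3 in this window. Neither do Atp5pb, Ndufb6 and Ndufs3, which also fell by over 1 log2 unit and are not printed. A match is a run of letters and not a measured binding site.
Uqcrc2 (chr1:184598990-184599289, plus strand): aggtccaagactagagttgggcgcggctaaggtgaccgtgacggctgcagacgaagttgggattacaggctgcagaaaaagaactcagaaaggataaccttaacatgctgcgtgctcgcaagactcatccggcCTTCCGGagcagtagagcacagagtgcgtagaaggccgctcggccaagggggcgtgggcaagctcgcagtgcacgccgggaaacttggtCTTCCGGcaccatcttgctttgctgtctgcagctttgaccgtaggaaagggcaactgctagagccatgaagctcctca
Ndufa6 (chr7:115750268-115750567, minus strand): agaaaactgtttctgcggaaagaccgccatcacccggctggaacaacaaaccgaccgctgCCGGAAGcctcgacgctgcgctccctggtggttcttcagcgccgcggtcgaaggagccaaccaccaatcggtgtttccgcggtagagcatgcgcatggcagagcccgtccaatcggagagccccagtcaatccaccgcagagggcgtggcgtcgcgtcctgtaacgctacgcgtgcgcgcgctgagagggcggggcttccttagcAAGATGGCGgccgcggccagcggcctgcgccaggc
Ndufb8 (chr1:253362887-253363186, minus strand): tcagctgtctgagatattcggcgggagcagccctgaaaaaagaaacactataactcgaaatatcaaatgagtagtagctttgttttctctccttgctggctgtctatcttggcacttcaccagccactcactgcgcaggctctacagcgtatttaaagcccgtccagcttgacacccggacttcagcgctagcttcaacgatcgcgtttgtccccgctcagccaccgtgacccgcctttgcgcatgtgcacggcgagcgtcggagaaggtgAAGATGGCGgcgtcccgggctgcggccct
Atp5mg (chr8:54130358-54130657, minus strand): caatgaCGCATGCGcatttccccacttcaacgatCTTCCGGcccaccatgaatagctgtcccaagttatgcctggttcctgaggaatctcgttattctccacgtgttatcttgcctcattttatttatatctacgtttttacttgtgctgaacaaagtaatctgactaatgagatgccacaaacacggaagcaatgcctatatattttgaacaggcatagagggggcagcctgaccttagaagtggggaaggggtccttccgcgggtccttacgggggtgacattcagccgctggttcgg
Atp5if1 (chr5:150026628-150026927, minus strand): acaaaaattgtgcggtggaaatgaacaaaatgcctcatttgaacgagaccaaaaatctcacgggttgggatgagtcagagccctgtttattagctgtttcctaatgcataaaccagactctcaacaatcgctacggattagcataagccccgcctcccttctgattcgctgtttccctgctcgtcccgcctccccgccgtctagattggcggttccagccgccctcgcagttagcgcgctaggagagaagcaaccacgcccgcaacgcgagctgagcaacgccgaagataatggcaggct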

How the data were processed

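The authors deposited a linear intensity for each probe set on each array. MAS5 and RMA are both named in the submitters' processing notes, which do not tell which produced these values. TRIzol-extracted total RNA was hybridised with a biotin label, per the labels' protocols. With 3 arrays per group, the number of arrays sets the precision. Probe sets naming 1 gene (20826 of 31099) were kept, and the one with the highest mean over the 12 arrays stood for the gene. Another 7 subunit probe sets name several genes (436 on the array do) and were left out. The platform's annotation gave the symbols.

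Values were analysed as log2(value + 16) in 1 fit of all 12 arrays and 14217 genes with limma 3.58.1 (lmFit, eBayes) in R 4.3.3, with 6 contrasts, 2-sided, Benjamini-Hochberg adjusted over all genes. The comparisons with control share the control arrays, and those with HCC share the HCC arrays. The fit was tested on simulated data. Lists are described by counts and medians without a test of their own. Named genes are up to 4 called members of each complex in each comparison by size of change (the smallest adjusted p where none was called), all of complex II, the isoform families and Atp5if1, and up to 3 called genes of each pathway list. Others, such as Cyc1, the electron-path subunits of complex I and genes called in alternative fits, were chosen after their values were seen. Kinases and pseudogenes that share the symbol prefix of cytosolic ribosomal proteins were removed from that list. Members and lists were chosen with earlier results of these data known. Alternatives covered pseudocounts of 1 and 64, quantile normalization, median centring, leaving out the dimmest 30% of genes, other probe sets, array weights, a Gapdh covariate, replicate numbers as a block, only the compared groups, and each array left out. Leaving out HCC arrays together was added after seeing the data. Tables were made with pandas 2.3.3 and numpy 2.4.6 under Python 3.11.15, and figures with matplotlib 3.10.9.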

Additional observations from a re-analysis of the deposited data

Results flagged for a closer look

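In 19 genes all arrays of 1 stage lay above and all arrays of another below the 3 controls, and the stages differed from each other in limma's test, which held for 8.77% of all genes. In hepatitis above and HCC below control were Ndufa8 (HCC minus hepatitis -2.44), Atp5pb (-2.06), Ndufb6 (-1.65), Ndufc1 (-1.50), Ndufb10 (-1.42), Sdha (-1.19), Ndufa11 (-1.19), Ndufb9 (-1.09), Ndufc2 (-0.98), Ndufa4 (-0.82), Atp5mc3 (-0.66), Cox6c (-0.61), Cox4i1 (-0.56), Ndufa13 (-0.55), Ndufa1 (-0.38) and Ndufb1 (-0.31). Cirrhosis lay above and HCC below control for Sdha (HCC minus cirrhosis -1.17), Sdhd (-0.99) and Ndufa4 (-0.77). Cirrhosis lay below and HCC above control for Ndufs4 (HCC minus cirrhosis 0.45) and Atp5f1e (0.37). The differences of HCC minus a stage carry adjusted p-values of limma from 1.07e-05 (Ndufa11) to 0.015 (Cox6c). None of the hepatitis differences from control among them passed the threshold except that of Ndufb1. No cirrhosis difference from control among them passed it, and in HCC those of Ndufb1, Cox6c, Ndufs4 and Atp5f1e did not.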

How the results depend on the processing

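Counts below are of the 79 subunit genes called. The shares of all genes called in the same fits are not given, so general gains or losses of calls are not set apart. Leaving out 1 array at a time gave 0 to 4 for hepatitis against control (2 with all arrays), 0 to 4 for cirrhosis against control (2), 42 to 58 for HCC against control (54), 0 to 3 for cirrhosis against hepatitis (1), 39 to 54 for HCC against cirrhosis (47) and 47 to 58 for HCC against hepatitis (59). Hepatitis against control gave 1 with a pseudocount of 1, with median centring and without the dimmest 30%, 4 with the second probe set, with array weights and with the Gapdh covariate, and 8 without all HCC arrays or without HCC replicates 2 and 3. Cirrhosis against control gave 0 with a pseudocount of 1 and without the dimmest 30% (9 at an unadjusted p under 0.05 in each), 1 with quantile normalization, median centring or the second probe set, 14 with only the compared groups, 11 with array weights, and 9 without all HCC arrays or HCC replicates 2 and 3. Cirrhosis against hepatitis gave 0 with a pseudocount of 1, median centring and without the dimmest 30% (8, 6 and 7 at an unadjusted p under 0.05), 2 with a pseudocount of 64, the mean of probe sets, the second probe set and the Gapdh covariate, 3 with only the compared groups, 5 with array weights, and 8 without all HCC arrays or HCC replicates 2 and 3. With only the compared groups, HCC against control gave 33 and HCC against hepatitis 32. With the Gapdh covariate, HCC gave 31 against control, 13 against cirrhosis and 20 against hepatitis. Quantile normalization gave HCC against cirrhosis 33 lower and 16 higher, and against hepatitis 35 lower and 7 higher. Signs turned under the covariate for Sdhc (0.0534) and Cox6b1 (0.0579) against control, for Uqcrfs1 (0.0064), Cox6a1 (0.239) and Cox5a (0.0121) against cirrhosis, and for Cox6a1 (0.0872), Cox6c (0.0548) and Cox6b1 (0.155) against hepatitis. Under quantile normalization they turned for Uqcrq (0.0235) and Cox6b1 (0.0311) against control and Cox7c (0.0369) against cirrhosis. The cause was not tested. Of 74 called differences of named genes, 59 stayed called whichever 1 array was left out.

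Groups share replicate numbers 1 to 3. Correlations of deviations were of mixed sign between same-numbered arrays (-0.25 to 0.37), beside -0.32 to 0.20 between other arrays. All 3 same-numbered values were positive for hepatitis with HCC (0.37, 0.20 and 0.07) and all 3 negative for control with hepatitis. The numbers were not taken as pairs. With the replicate block 0 genes were called in hepatitis against control, in cirrhosis against control and in cirrhosis against hepatitis in limma (10, 10 and 9 at an unadjusted p under 0.05), and HCC gave 50 against control, 44 against cirrhosis and 56 against hepatitis.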

Other observations

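The probe sets that name a subunit gene together with another locus followed the pattern of the 79 genes, without a test. Differences of HCC minus control were -0.43 for Ndufs5, -0.90 for Ndufa10, -0.19 for Uqcrb, -0.62 for Cox7a2, -0.90 for Cox5a, -1.16 for Atp5mc1 and -1.34 for Atp5mc2. Ndufa10 differed in all stages, by -0.39 in hepatitis, -0.57 in cirrhosis and -0.90 in HCC against control. Ndufab1, the mitochondrial acyl carrier protein that is also part of complex I and lies outside the name rule, had 2056, 1611 and 1208 in HCC, against 2581, 2620 and 2513 in control (-0.69 ± 0.15 SE, limma adjusted p = 0.00555).

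The brighter and dimmer probe sets of Uqcrc2 differed in hepatitis. The dimmer one, at a mean of 72.4 over the arrays, was higher than control by 0.77 (limma adjusted p = 0.0208 in a fit of probe sets), where the brighter one differed by 0.02 (limma adjusted p = 0.983).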
